A study of Mus musculus with 28 samples.

Results

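The 10 genes described here, Fos, Fosb, Jun, Junb, Jund, Atf3, Egr1, Ier2, Dusp1 and Zfp36, are immediate early and stress genes. They were taken by symbol as 10 of the 55011 genes of a count table from sorted mouse medullary thymic epithelial cells (mTECs), and each was followed through 28 libraries in 8 groups. Immediate early genes are transcribed within minutes of a stimulus by factors that the cell already holds, without new protein synthesis. Growth factors, cytokines and stress reach them through MAP kinases, which act on serum response factor and its partners at a sequence called the CArG box and on factors of the CREB family at cyclic AMP response elements. Their products include the Fos and Jun subunits of the dimeric transcription factor AP-1, as well as proteins that end the response by dephosphorylating MAP kinases or by clearing short-lived mRNAs. The same genes are well known to be induced while a tissue is digested with enzymes to free its cells. All 28 libraries came from thymi digested with collagenase and dispase, so transcript made in the tissue and transcript made during preparation cannot be told apart.

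mTECs are stromal cells of the thymus that display proteins of other tissues to developing T cells, and Hnf4a and Hnf4g encode nuclear receptors of gut and liver. All mice were C57BL/6, and the sources used here do not give their age. The entero-hepato gate (n = 3) and the non-entero-hepato gate (n = 3) were sorted from wild-type thymi, which carried no Cre. The mTEChi cells were of 2 genotypes, the double mutant Foxn1cre(+/-)Hnf4a(fl/fl)Hnf4g(-/-) (n = 4) and the control Foxn1cre(+/-)Hnf4a(fl/+)Hnf4g(+/-) (n = 4). The mTEClo cells, which the labels call post-Aire, were of 4 genotypes. These were the same double mutant (n = 4), the 4aKO Foxn1cre(+/-)Hnf4a(fl/fl)Hnf4g(+/-) (n = 3), the 4gKO Foxn1cre(+/-)Hnf4a(fl/+)Hnf4g(-/-) (n = 3) and the same control (n = 4). Every mutant and control mouse thus carried Foxn1-Cre, which is active in thymic epithelium, and the controls kept 1 intact allele of each gene. From the notation, Hnf4g was lacking in the whole animal and Hnf4a was removed where Cre had been active. The labels number a thymus for each library without saying that the numbers mark separate mice, so the p-values rest on a spread between libraries that may be partly technical.

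Each library was made from 1000 sorted cells and held 4330120 to 8342583 counts. Epcam, an epithelial surface protein, was detected in all 28 libraries, and Aire, which defines the mature mTEC stage, was called higher in mTEChi than in mTEClo in both genotypes. Ccl21a, a chemokine gene of immature mTECs, had 0 counts in all but 1 library. Ptprc, which encodes CD45, was at 7.52 to 47.7 CPM of the plain totals, although CD45+ cells had been depleted. Deviations from the group mean in mTEClo control replicate 1 and 4gKO replicate 1 correlated with each other (r = 0.279). Those of 4gKO replicate 1 correlated nearly as much with 4aKO replicate 1 (0.267), which was kept throughout. Counts of called genes and correlations between members are also given without control replicate 1 and 4gKO replicate 1. Because these are bulk samples, fewer cells of a type and less RNA per cell cannot be told apart. Levels below are CPM, counts relative to a fixed library total, on library sizes scaled by TMM, a method that sets the bulk of genes equal between libraries. A gene was called where its p-value from edgeR's quasi-likelihood test, adjusted by Benjamini-Hochberg over all genes tested, was under 0.05. Where the libraries of groups are said not to overlap, the share of all genes that did so is not given. Such statements describe the values and are not read as particular to the members.

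The upstream sequences of 3 members, chosen for their matches to short motifs, are printed from RefSeq promoters on GRCm38.p6 with the matched letters in capitals. A RefSeq promoter was at hand for 8 of the 10 members, and Egr1 and Ier2 are named only. Both strands of the 250 bases before each gene's start were searched for the CArG box, for the full cyclic AMP response element TGACGTCA, for its shorter form TGACGT, for the AP-1 site TGACTCA and for the TATA sequence TATAAA. The shorter form lies within TGACGTCA, so every match to the longer motif also counts for the shorter one. Zfp36 is shown for its CArG box, at 58 to 49 bases before the start, Dusp1 for the full element at 143 to 136, with a further TGACGT at 191 to 186, and Fos for TGACGT at 66 to 61 and TATAAA at 33 to 28. The Zfp36 stretch is chr7:28379267-28379296 on the minus strand, cut to 30 bases because the region lies in GENCODE exons of Zfp36. The Dusp1 stretch is chr17:26508520-26508722 on the minus strand and leaves out the 47 bases nearest the start, which GENCODE places in exons. The Fos stretch is chr12:85473640-85473889 on the plus strand.
Zfp36: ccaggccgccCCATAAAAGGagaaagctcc
Dusp1: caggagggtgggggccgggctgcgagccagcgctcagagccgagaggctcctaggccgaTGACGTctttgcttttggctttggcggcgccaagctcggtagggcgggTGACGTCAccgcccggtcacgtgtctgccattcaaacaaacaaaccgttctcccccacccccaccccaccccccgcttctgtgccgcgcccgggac
Fos: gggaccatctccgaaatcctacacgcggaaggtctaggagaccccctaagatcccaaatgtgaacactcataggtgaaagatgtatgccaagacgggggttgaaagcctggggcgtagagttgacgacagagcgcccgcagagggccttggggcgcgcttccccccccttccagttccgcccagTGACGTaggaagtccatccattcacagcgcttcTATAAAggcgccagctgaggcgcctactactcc
Among 32851 mouse promoters of the same length, 1.47% held a CArG box, 1.55% TGACGTCA, 6.47% TGACGT, 12.4% TATAAA and 4.46% TGACTCA. The short form TGACGT was present upstream of Fos, Atf3 and Dusp1, and TGACTCA upstream of 0 of the 8 members. The CArG box, TGACGTCA and TATAAA were each present upstream of 1 of the 8. The TGACGT and TATAAA motifs and the Fos stretch were chosen after the motif content had been seen. A match is a description of letters and not a site of action, and a missing match says only that these letters are not in this window.

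As a set, the 10 genes stood highest in mTEClo and lowest in mTEChi. They summed to 2696 to 2869 CPM in the entero-hepato gate, 2766 to 3097 CPM in the non-entero-hepato gate, 1566 to 2342 CPM in double-mutant mTEChi and 1544 to 2315 CPM in control mTEChi. In mTEClo the sum was 4276 to 5076 CPM in the double mutant, 3968 to 5035 CPM in the 4aKO, 3899 to 4879 CPM in the 4gKO and 3650.4 to 4486 CPM in the control. On this scale no mTEClo library overlapped any library of the other 4 groups. Without Fos the sum was still at least 2729 CPM in mTEClo and at most 2694 CPM elsewhere, but on plain library totals it overlapped, at 2728 CPM in the lowest mTEClo control library and 2849 CPM in the highest library of the non-entero-hepato gate. Fos, the best known AP-1 subunit, made up 23.4% to 31.2% of the sum in mTEClo libraries and 10.6% to 15.5% of it elsewhere.

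**Figure D1:**
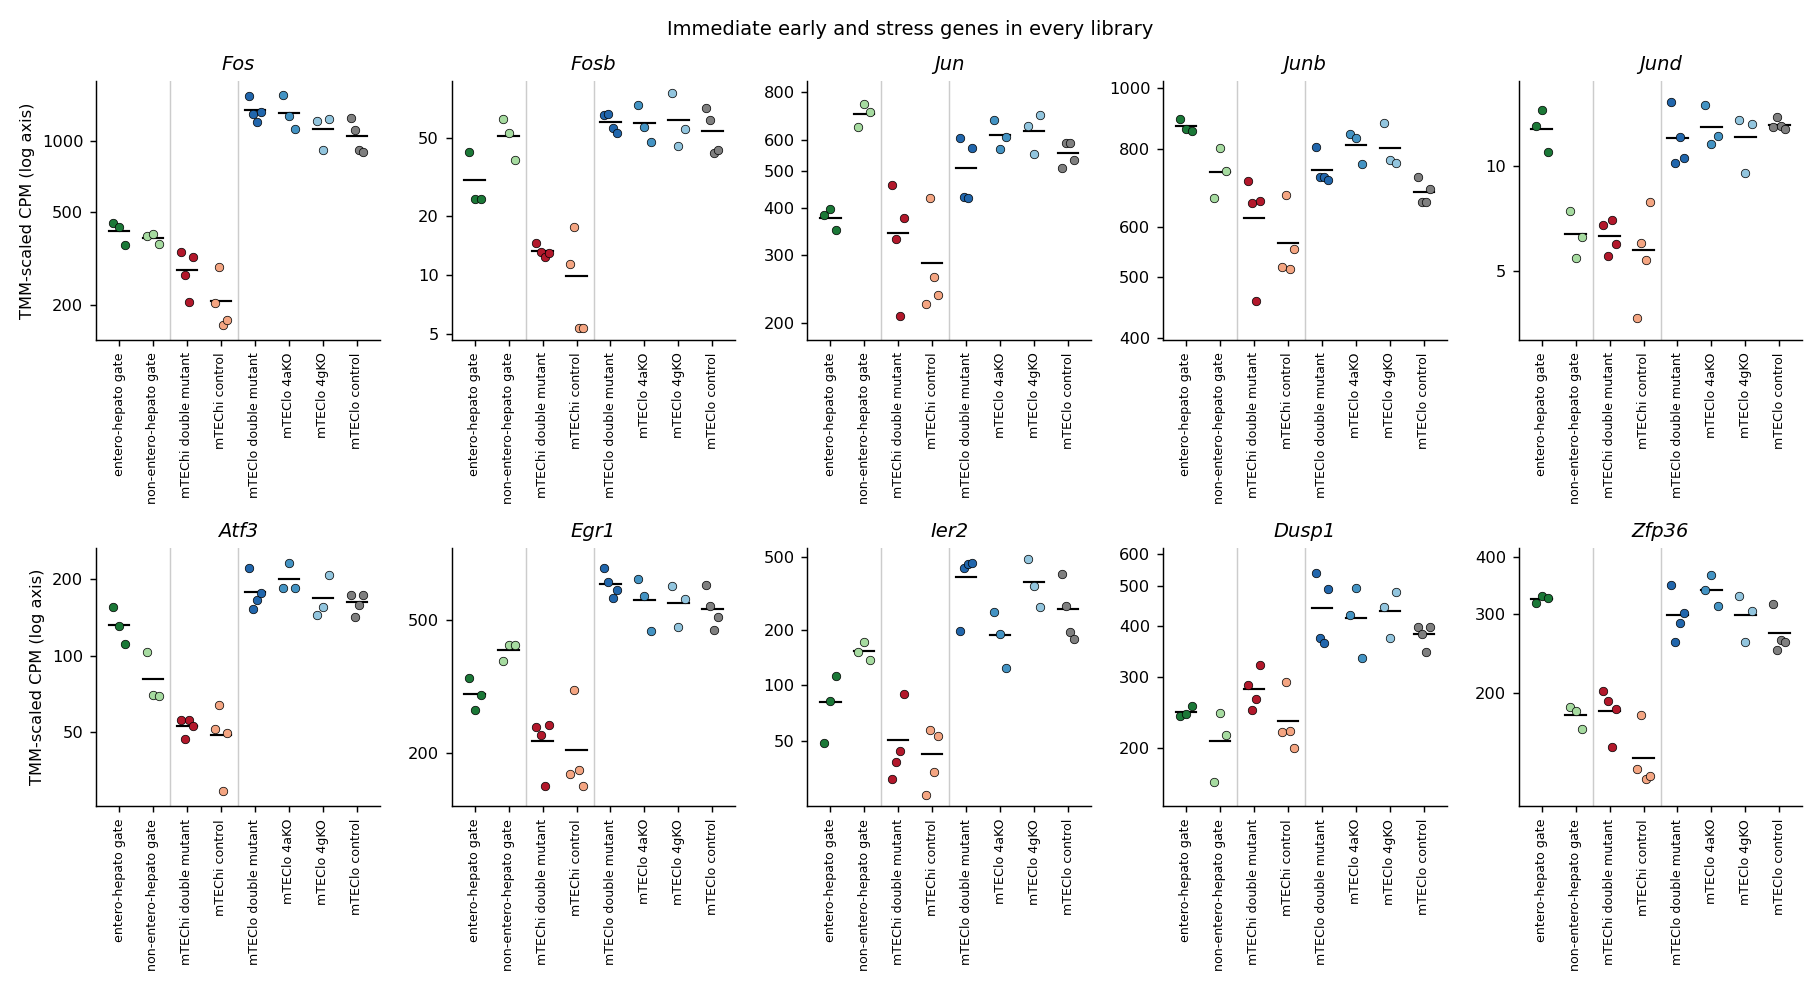
CPM on TMM-scaled library sizes (y axis, log scale) of each of the 10 genes in the 28 libraries, with 1 point per library, the groups along the x axis and a bar at each group mean. All genes but Dusp1 and Zfp36 have their lowest group means in the mTEChi groups, and the group means of Junb lie closest together.

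Levels were also set per kilobase of exon, with the exons of all annotated transcripts of a gene joined, so the order between genes depends on that length. On this scale Fos was the most abundant member in every mTEClo group, from 576 CPM per kb in the double mutant to 446 in the control. Junb, an AP-1 subunit that often restrains Jun, was the most abundant in both wild-type gates and both mTEChi groups, at 377 CPM per kb in the entero-hepato gate and 246 in control mTEChi. Fosb and Jund were the least abundant in every group, at 1.59 to 9.91 CPM per kb. On GRCm38 (GENCODE M21) the set lies scattered, with Fos on chromosome 12 (85473890 to 85477273), Jun on chromosome 4 (95049034 to 95052222) and Atf3 on chromosome 1 (191170296 to 191218039). Fosb (19302696 to 19310051) and Zfp36 (28376784 to 28380253) are both on chromosome 7, and Junb (84974484 to 84978718), Jund (70698949 to 70700616) and Ier2 (84661331 to 84662852) are all on chromosome 8. Egr1 is on chromosome 18 (34859823 to 34864984) and Dusp1 on chromosome 17 (26505590 to 26562128). Of the exonic bases of Jund, 52.6% overlap Gm11175 on the other strand. Reads of the overlapping genes cannot be told apart, because the library kit does not mark strand, and Jund had only 20 to 113 reads per library, against at least 37 for each of the other 9 genes. Jun shares 7.28% of its exonic bases with Junos and Junb 7.52% with Prdx2.

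Ordered by mean, the 4 mTEClo groups held the top 4 places for Fos, Fosb, Atf3, Egr1, Ier2 and Dusp1, and neighbours among them overlapped in every case. The next place down for Fos was the entero-hepato gate, whose libraries did not overlap those of control mTEClo. Jun differed in this order, with its highest mean in the non-entero-hepato gate, at 702 ± 48.0 CPM (SD, n = 3). Junb had its highest mean in the entero-hepato gate, at 868 ± 20.1 CPM (SD, n = 3). Dusp1 had its lowest mean in the non-entero-hepato gate, and each of the other genes had its lowest in control mTEChi. The 2 mTEChi groups overlapped for all 10 genes.

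Mature mTEChi carried less of most of the 10 transcripts than post-Aire mTEClo, within the control genotype and again within the double mutant. All mTEChi libraries were deposited under a run of sample numbers apart from that of all other libraries. Whether they were also prepared apart is not known here, so subset and preparation cannot be told apart. In control cells 9 of the 10 genes were called lower in mTEChi and 0 higher, all but Junb, in a comparison that called 42.9% of 20095 genes in either direction, 22.4% higher and 20.5% lower. In double-mutant cells 9 of 10 were likewise called lower, where 50.8% of genes were called in either direction, 27.7% higher and 23.1% lower. The median log2 fold change of the 10 genes was -1.28 in control and -1.23 in double-mutant cells, beside 0.04 and 0.06 over all genes tested. Fos, Fosb and Ier2 differed most, by 4.52-fold to 7.55-fold, Atf3 and Egr1 came next, and Jun, Jund, Dusp1 and Zfp36 moved less.

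**Figure D2:**
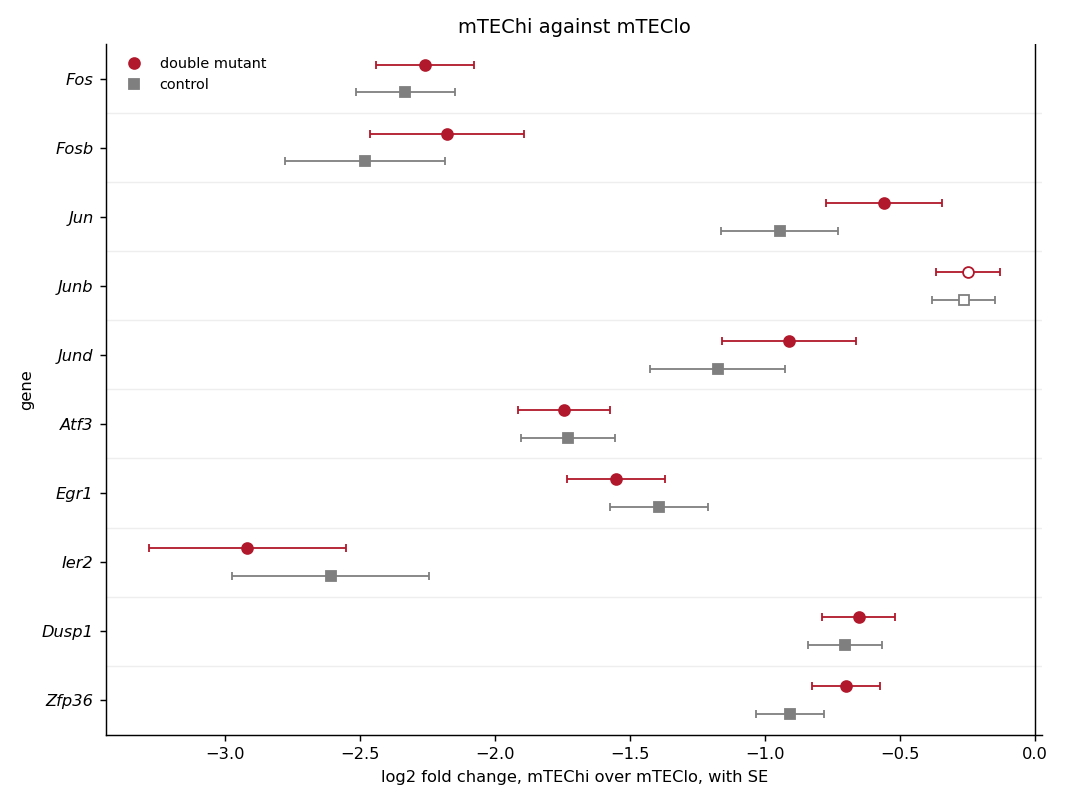
log2 fold change of mTEChi over mTEClo (x axis, bars show the SE) for the 10 genes in double-mutant and control cells, from edgeR on 16 libraries. Every point lies below 0, with Ier2, Fosb and Fos farthest to the left and Junb nearest to 0.

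Fos was at 203, 291, 163 and 172 CPM in control mTEChi, against 1253, 1117, 921 and 902 CPM in control mTEClo. The highest mTEChi library stood far below the lowest mTEClo library (mTEChi over mTEClo log2 fold change -2.33, SE 0.18, adjusted p = 2.27e-08). Fosb, a close relative of Fos, was at 11.4, 17.5, 5.38 and 5.37 CPM in control mTEChi, against 70.6, 62.0, 41.9 and 43.3 CPM in control mTEClo. Here too the groups did not overlap (log2 fold change -2.48, SE 0.30, adjusted p = 3.29e-06), although the 4 mTEChi libraries spread over 3.27-fold. Atf3, a stress-induced repressor of the ATF family that can pair with Jun, was at 51.6, 63.8, 29.5 and 49.7 CPM in control mTEChi, against 173, 141, 158 and 173 CPM in control mTEClo. Every mTEChi library lay well below every mTEClo library (log2 fold change -1.73, SE 0.17, adjusted p = 4.31e-07).

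The Jun family, which pairs with Fos proteins or with itself, moved less than Fos. Jun was at 224, 425, 263 and 236 CPM in control mTEChi, against 508, 591, 589.5 and 532 CPM in control mTEClo. Replicate 2 of mTEChi came closest to the mTEClo libraries without reaching them (log2 fold change -0.94, SE 0.22, adjusted p = 0.00197). Junb was at 519.5, 674, 516 and 555 CPM in control mTEChi, against 722, 659, 659 and 689 CPM in control mTEClo. Its ranges overlapped through that same mTEChi library, and it was not called (log2 fold change -0.26, SE 0.12, adjusted p = 0.0796). Without that library Junb was called lower, with a log2 fold change of -0.36 (edgeR adjusted p = 0.0232). Jund, at far lower counts, was at 3.67, 6.03, 5.38 and 7.88 CPM in control mTEChi, against 12.9, 13.8, 13.0 and 12.8 CPM in control mTEClo. The 4 mTEClo libraries lay close together, between 12.8 and 13.8 CPM, above every mTEChi library (log2 fold change -1.17, SE 0.25, adjusted p = 0.00112).

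Egr1, a zinc finger factor induced through serum response factor, was at 173, 308, 178 and 159.8 CPM in control mTEChi, against 633, 547, 465 and 509 CPM in control mTEClo. The groups did not overlap, with mTEChi replicate 2 again the highest of its group (log2 fold change -1.39, SE 0.18, adjusted p = 9.37e-06). Ier2, a small nuclear protein of the immediate early response, was at 25.4, 57.5, 34.0 and 53.2 CPM in control mTEChi, against 402, 269, 194 and 179.6 CPM in control mTEClo. It was the member that differed most, 6.09-fold lower in mTEChi, and also the one with the largest SE (log2 fold change -2.61, SE 0.36, adjusted p = 1.95e-05). Dusp1, a phosphatase that switches off MAP kinases, was at 219, 291, 220.3 and 201 CPM in control mTEChi, against 398, 382, 345 and 397 CPM in control mTEClo. Zfp36, which encodes tristetraprolin, a protein that clears mRNAs with AU-rich elements, was at 136, 179.6, 129.6 and 132 CPM in control mTEChi, against 315, 249, 263 and 259 CPM in control mTEClo. Both feedback genes were lower in every mTEChi library than in any mTEClo library, with log2 fold changes of -0.70 (SE 0.14) and -0.91 (SE 0.13) and edgeR adjusted p-values of 0.000519 and 1.79e-05.

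The double-mutant cells, which share no library with the controls, gave the contrast again. They were fitted together with the controls, with a shared estimate of the spread, and their mTEChi libraries had the same separate run of sample numbers. Fos was at 335, 268, 205 and 319.8 CPM in double-mutant mTEChi, against 1565, 1309, 1213 and 1336 CPM in double-mutant mTEClo (log2 fold change -2.26, SE 0.18, adjusted p = 1.75e-08). Ier2 was at 31.2, 38.5, 43.8 and 89.4 CPM in double-mutant mTEChi, against 197, 432, 456 and 461 CPM in double-mutant mTEClo (log2 fold change -2.92, SE 0.37, adjusted p = 3.835e-06). Neither gene's groups overlapped. Log2 fold changes were -2.18 for Fosb, -1.74 for Atf3, -1.55 for Egr1, -0.91 for Jund, -0.70 for Zfp36 and -0.65 for Dusp1, all called by edgeR with adjusted p-values from 2.07e-07 to 0.00546 and no overlap between groups. Jun was at 459.7, 332, 208 and 377 CPM in double-mutant mTEChi, against 609, 426, 425 and 573 CPM in double-mutant mTEClo. Its groups overlapped, and its call was marginal (log2 fold change -0.56, SE 0.21, adjusted p = 0.0384). Without mTEClo replicate 1 or 4 or mTEChi replicate 2 or 3 of the double mutant, Jun lost that call (edgeR adjusted p = 0.0728 to 0.119), as it did in a fit on these 2 groups alone (0.05125). Junb was at 711, 657, 458 and 659 CPM in double-mutant mTEChi, against 805, 721, 722 and 713 CPM in double-mutant mTEClo. These groups just missed overlapping, yet the gene was not called (log2 fold change -0.25, SE 0.12, adjusted p = 0.0893), and it was called without mTEChi replicate 1 (adjusted p = 0.0412).

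Markers of other cell types also differed between these libraries. Markers of tuft cells (Trpm5, Avil, Pou2f3 and Dclk1) summed to 276 to 501 CPM of the plain library totals in mTEChi and 5053 to 7807 CPM in mTEClo, and all 4 were called lower in mTEChi in both genotypes, none of them being at 0 in any library. The fibroblast markers summed to 187 to 299 CPM in mTEChi against 33.6 to 75.6 in mTEClo, the myeloid markers to 1151 to 1855 against 208 to 919.6 CPM and the thymocyte markers to 61.0 to 116 against 10.2 to 35.7 CPM. In control cells 4 of 7 fibroblast, 7 of 9 myeloid and 9 of 10 thymocyte markers tested were called higher in mTEChi, and 1 fibroblast and 1 myeloid marker lower. Endothelial markers ran the other way, at 41.0 to 62.4 CPM in mTEChi against 107 to 199.8 in mTEClo, with 2 of 4 called lower in control mTEChi. Of 10 mTEC markers tested, 8 were called higher and 1, Epcam, lower in control mTEChi, but the list holds Aire, Cd80 and the MHC class II genes H2-Aa and H2-Ab1, which set mTEChi apart from mTEClo, and does not measure epithelial content. The part of these markers in the result was not tested.

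In wild-type thymi the immediate early genes parted in both directions between the gates. Zfp36, Atf3 and Jund were called higher in the entero-hepato gate, and Jun, Egr1, Ier2 and Fosb lower, while Fos, Junb and Dusp1 were not called. These 3 higher and 4 lower calls among 10 genes stand beside 44.5% of 16811 genes called in either direction, 22.7% higher and 21.8% lower, so calls of either sign were common among genes in general. The median log2 fold change was 0.15 for the 10 genes and -0.05 for all genes tested.

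**Figure D3:**
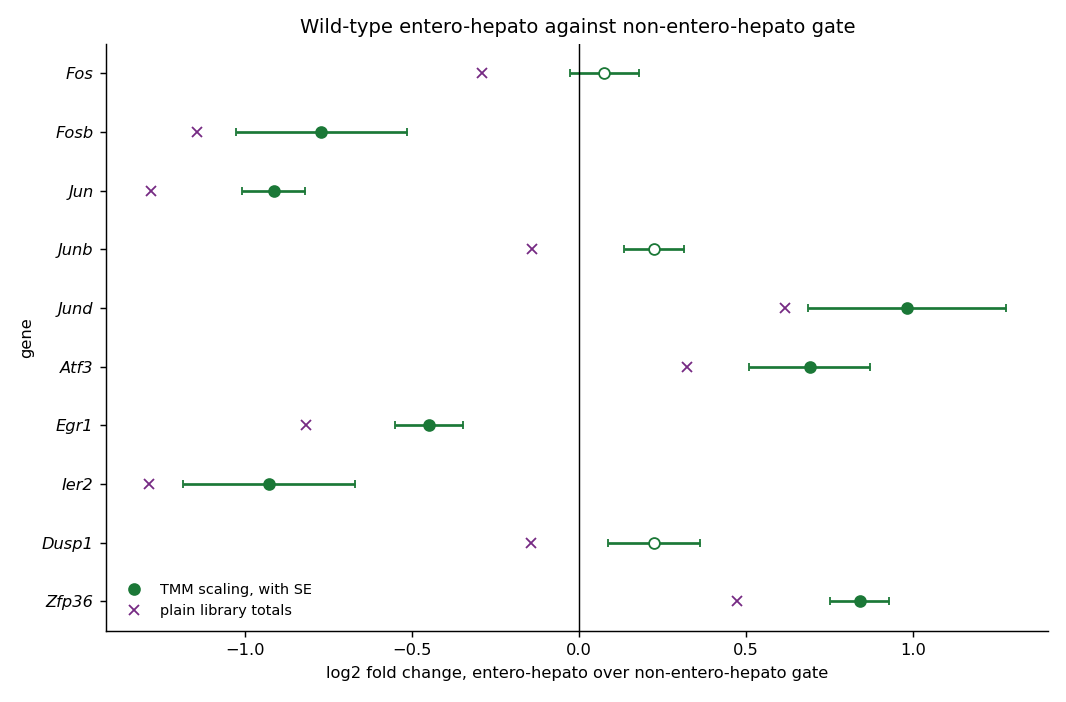
log2 fold change of the entero-hepato over the non-entero-hepato gate (x axis, bars show the SE) for the 10 genes, on TMM-scaled libraries and on plain library totals. Zfp36, Atf3 and Jund lie above 0 and Jun, Ier2, Fosb and Egr1 below 0 under both scalings, while Fos, Junb and Dusp1 change sign.

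Jun was at 382, 397 and 349 CPM in the entero-hepato gate, against 650.4, 745 and 711 CPM in the non-entero-hepato gate. The highest library of the entero-hepato gate stood well below the lowest of the other (log2 fold change -0.91, SE 0.09, adjusted p = 8.985e-05). Zfp36 was at 317, 328 and 325 CPM in the entero-hepato gate, against 187, 183 and 167 CPM in the non-entero-hepato gate. It ran opposite to Jun, and its 3 libraries in the entero-hepato gate lay within 1.03-fold of each other (log2 fold change 0.84, SE 0.09, adjusted p = 9.73e-05). Egr1 was at 334, 268 and 297 CPM in the entero-hepato gate, against 376, 420.0 and 419 CPM in the non-entero-hepato gate (log2 fold change -0.45, SE 0.10, adjusted p = 0.00658). These groups did not overlap, and Jun, Zfp36 and Egr1 kept their calls under all 11 alternative settings tried.

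The remaining calls were less firm. Atf3 was at 155, 131 and 111 CPM in the entero-hepato gate, against 104, 70.3 and 69.6 CPM in the non-entero-hepato gate (log2 fold change 0.69, SE 0.18, adjusted p = 0.0137). Ier2 was at 48.6, 82.1 and 112 CPM in the entero-hepato gate, against 152, 172 and 137 CPM in the non-entero-hepato gate (log2 fold change -0.93, SE 0.26, adjusted p = 0.0176). Neither gene's groups overlapped. Jund was at 13.0, 14.4 and 10.9 CPM in the entero-hepato gate, against 7.42, 5.46 and 6.29 CPM in the non-entero-hepato gate (log2 fold change 0.98, SE 0.30, adjusted p = 0.0249). Fosb was at 42.5, 24.5 and 24.3 CPM in the entero-hepato gate, against 62.1, 53.1 and 38.5 CPM in the non-entero-hepato gate, and its groups overlapped (log2 fold change -0.77, SE 0.26, adjusted p = 0.0364). With 1 library left out, 4 to 6 genes were called. Without entero-hepato replicate 2 there were 4, all from the 7, and without non-entero-hepato replicate 2 there were 3 of the 7 and Junb, newly called. Atf3 lost its call without non-entero-hepato replicate 2 or 3, Ier2 without replicate 2 of either gate, and Fosb without entero-hepato replicate 2 or 3 or non-entero-hepato replicate 1 or 2. Jund lost its call without entero-hepato replicate 1 or 2 or non-entero-hepato replicate 2 or 3.

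The 3 genes without a call lay close together in the gates. Fos was at 445, 429 and 360.1 CPM in the entero-hepato gate, against 394, 403 and 364 CPM in the non-entero-hepato gate, with overlapping libraries (log2 fold change 0.08, SE 0.10, adjusted p = 0.583). Dusp1 was at 240.5, 242 and 255 CPM in the entero-hepato gate, against 166, 244 and 215 CPM in the non-entero-hepato gate, again with overlap (log2 fold change 0.22, SE 0.14, adjusted p = 0.2225). Junb was at 890.5, 859.8 and 853 CPM in the entero-hepato gate, against 668, 801 and 737 CPM in the non-entero-hepato gate. Its libraries did not overlap, and it missed the threshold by edgeR (log2 fold change 0.22, SE 0.09, adjusted p = 0.0717) but not by DESeq2 (adjusted p = 0.0312) or without non-entero-hepato replicate 2 (edgeR adjusted p = 0.0474).

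Scaling mattered for this pair of gates. Over the 28 libraries TMM factors were 0.783 to 0.838 in the entero-hepato gate and 1.05 to 1.07 in the non-entero-hepato gate, and the median log2 fold change of all genes was -0.05 with TMM and -0.41 on plain library totals. On plain totals 2403 genes were called higher and 6273 lower, against 3822 and 3657 with TMM. Of the 10 genes, 1 was then called higher and 5 lower. Fos turned to -0.29 (edgeR adjusted p = 0.0371), Junb to -0.14 and Dusp1 to -0.14, while Atf3 (0.32, adjusted p = 0.151) and Jund (0.62, adjusted p = 0.1165) lost their calls.

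Other measures of the cells moved between the same libraries. Tuft markers summed to 87.3 to 188 CPM of the plain totals in the entero-hepato gate and 1302 to 1967 CPM in the non-entero-hepato gate, with all 4 called lower. Erythroid markers summed to 135 to 208 CPM in the entero-hepato gate and 17.9 to 28.2 CPM in the non-entero-hepato gate, with 5 of 5 called higher. Myeloid markers, 4 of 9 called higher, summed to 559 to 907 against 314 to 496 CPM. Mitochondrial genes took 0.778 to 1.000% of counts in the entero-hepato gate against 1.36 to 1.88%, and ribosomal protein genes 0.837 to 1.03% against 2.33 to 2.46%. Their part in the result was not tested.

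None of the 10 genes was called in an Hnf4 mutant, in libraries where the targeted genes themselves stood low. Hnf4a, counted over the whole gene, was at 2.25 to 4.23 CPM in double-mutant, 2.56 to 4.72 in 4aKO, 2.36 to 4.06 in 4gKO and 2.26 to 6.88 CPM in control mTEClo, and at 1.51 to 7.01 CPM in double-mutant and 1.02 to 7.42 CPM in control mTEChi. Those ranges overlapped, so Hnf4a does not check the labels. Hnf4g was at 3.20 to 8.32 CPM in double-mutant, 6.25 to 9.22 in 4aKO, 7.6 to 8.8 in 4gKO and 9.03 to 15.7 CPM in control mTEClo, and at 5.21 to 12.9 CPM in double-mutant and 15.3 to 22.5 CPM in control mTEChi. All 3 groups labelled as lacking Hnf4g lay below their controls, without a call by edgeR (adjusted p = 0.0633 and 0.0862 for the double mutant in mTEClo and mTEChi, 0.637 for the 4gKO), and 1 of 3 4aKO libraries reached the control range. By edgeR 0 of 10 were called in double-mutant, 4aKO or 4gKO mTEClo against control or in double-mutant mTEChi against control. Over all genes tested edgeR called 0.74% in the double mutant, 0.00533% in the 4aKO and 0.0959% in the 4gKO of mTEClo, and 0.635% in double-mutant mTEChi. At an unadjusted p under 0.05 there were 1 of the 10 genes in double-mutant mTEClo, 3 in the 4aKO, 1 in the 4gKO and 2 in double-mutant mTEChi, beside 12.3%, 6.02%, 8.19% and 11.2% of all genes in the same order, and DESeq2 also called 0 in each. The 3 mTEClo comparisons share their 4 control libraries and are not independent of each other.

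**Figure D4:**
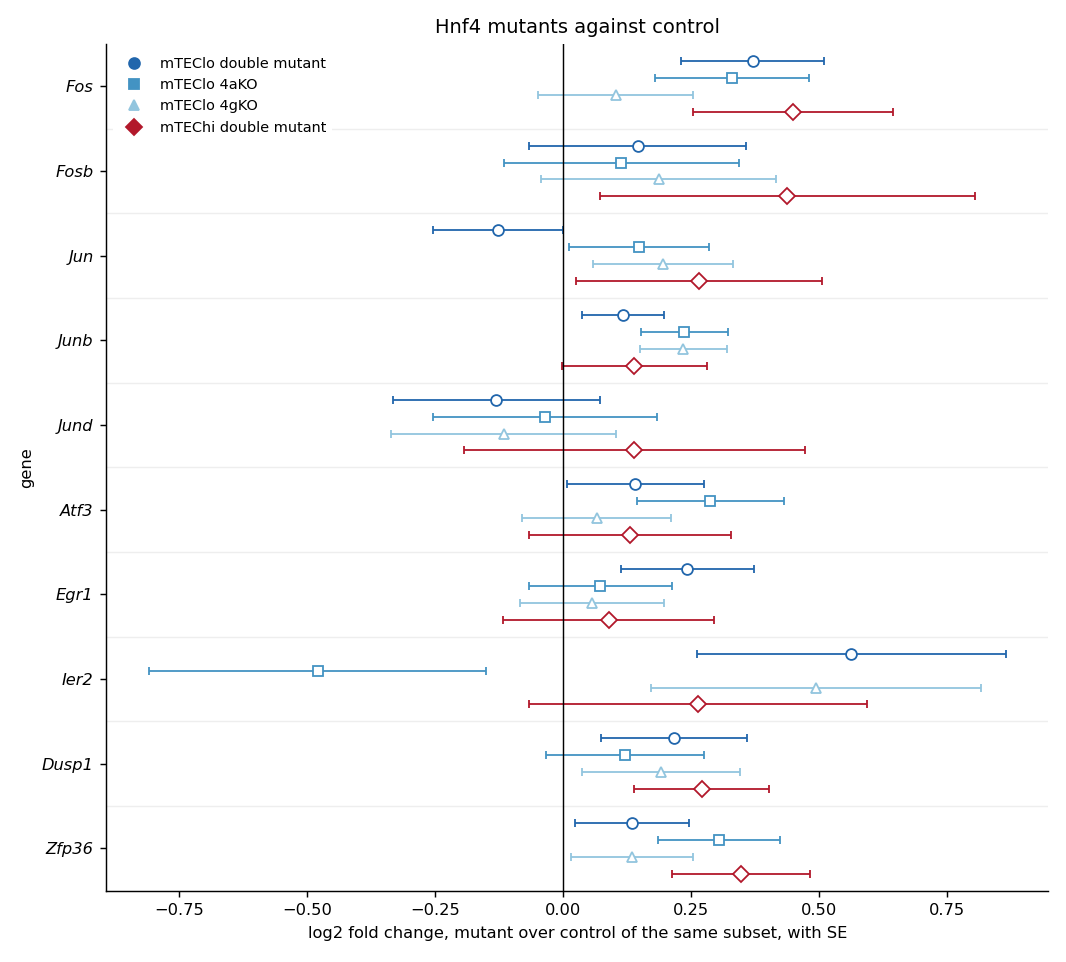
log2 fold change of each Hnf4 mutant over the control of its subset (x axis, bars show the SE) for the 10 genes. Points of the mTEChi double mutant all lie above 0 and under 0.5, and Ier2 is the gene whose mTEClo points lie farthest apart.

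In double-mutant mTEClo the median log2 fold change of the 10 genes was 0.14, beside 0.00 over all genes. Fos, listed above for double-mutant and control libraries, averaged 1356 ± 149 CPM in the double mutant and 1048 ± 167 CPM in the control, with errors as SDs over 4 libraries each. It was not called (log2 fold change 0.37, SE 0.14, adjusted p = 0.269), and its ranges overlapped through control replicate 1. Without mTEClo control replicate 1 and 4gKO replicate 1, 439 of all genes were called in place of 139, and still 0 of the 10. Ier2 averaged 387 ± 127 CPM in the double mutant and 261 ± 102 CPM in the control (log2 fold change 0.56, SE 0.30, adjusted p = 0.480). Egr1 averaged 638 ± 56.8 CPM in the double mutant and 539 ± 71.5 CPM in the control, and its ranges overlapped too (log2 fold change 0.24, SE 0.13). With no filter on low counts, Fos (edgeR adjusted p = 0.0165) and Ier2 (7.36e-05) were called higher. In the same libraries tuft markers summed to 7131 to 7807 CPM of the plain totals in the double mutant and 5053 to 6679 CPM in the control, and Avil among them was called higher, with a log2 fold change of 0.41 (adjusted p = 0.0342). The mTEC markers, mostly MHC class II transcript, summed to 4908 to 5411 CPM in the double mutant and 6247 to 10143 CPM in the control, with 0 of 10 called and a median log2 fold change of -0.72, and ribosomal protein genes took 1.37 to 1.45% of counts in the double mutant and 1.53 to 1.63% in the control. The part of these measures in the members' values was not tested.

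By mean, Ier2 was lower in the 4aKO and higher in the 4gKO than in control mTEClo. It was at 249, 191 and 124 CPM in the 4aKO and at 487, 347 and 266 CPM in the 4gKO, against 402, 269, 194 and 179.6 CPM in the control. Both mutants overlapped the control, and replicate 1 was the highest library of each group. With 1 library left out, the log2 fold change against control ran from 0.22 to 0.78 in the 4gKO and from -0.75 to -0.20 in the 4aKO. It is not given without replicate 1 of both the 4gKO and the control. Every 4aKO library was below every 4gKO library (4aKO over 4gKO log2 fold change -0.97, SE 0.35, unadjusted p = 0.01385, adjusted p = 0.518 by edgeR). In the double mutant Ier2 was higher than in the 4aKO by 1.04 on the log2 scale (SE 0.33, edgeR adjusted p = 0.254). Neither difference was called, and these 2 comparisons share the 4aKO libraries. The share of all genes with 4aKO and 4gKO libraries apart is not given, so nothing is read from the separation of Ier2. With no filter on low counts Ier2 was called in both and in each single mutant against control, lower in the 4aKO (adjusted p = 0.0397) and higher in the 4gKO (0.00735).

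Among the other genes of the single mutants, Junb was at 845, 830.5 and 755 CPM in the 4aKO and 879.9, 767 and 759 CPM in the 4gKO, against 722, 659, 659 and 689 CPM in the control. All 6 mutant libraries were above all 4 control libraries, with a log2 fold change of 0.24 (SE 0.09, edgeR adjusted p = 0.7805) in the 4aKO and 0.24 (SE 0.09, 0.464) in the 4gKO. Zfp36 was at 339, 365 and 312 CPM in the 4aKO and 328, 260.0 and 305 CPM in the 4gKO, against 315, 249, 263 and 259 CPM in the control. Its log2 fold change was 0.31 (SE 0.12, adjusted p = 0.809) in the 4aKO and 0.13 (SE 0.12, 0.850) in the 4gKO, and its libraries overlapped those of the control in both. Fos was at 1571, 1284 and 1122 CPM in the 4aKO and 1217, 914 and 1239 CPM in the 4gKO, again overlapping the control. Atf3 in the 4aKO, at 184, 230.1 and 183 CPM, was the only other gene of the 10 whose mutant libraries all stood apart from the control. It was not called (log2 fold change 0.29, SE 0.14, edgeR adjusted p = 0.838). The share of all genes that stood apart in this way is not given, so nothing is read from the separation of Junb or Atf3. Between mutants, edgeR called 0 of the 10 genes in double-mutant against 4aKO, double-mutant against 4gKO and 4aKO against 4gKO mTEClo, which called 0.293%, 0.0107% and 0.0639% of all genes. Each of these had 1 gene of the 10 at an unadjusted p under 0.05, where 11%, 10.3% and 7.71% of all genes were, and DESeq2 called 0 in each. That gene was Ier2 in both comparisons with the 4aKO and Jun in the double mutant against the 4gKO, at a log2 fold change of -0.32 (SE 0.14, edgeR adjusted p = 0.4315).

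In double-mutant mTEChi all 10 log2 fold changes against control were positive, from 0.09 for Egr1 to 0.45 for Fos, with a median of 0.27 beside 0.01 over all genes, of which 51.8% were positive. None passed the test. Fos averaged 282 ± 58.7 CPM in the double mutant and 208 ± 58.4 CPM in the control, again as SDs over 4 libraries each (log2 fold change 0.45, SE 0.19, adjusted p = 0.417). Zfp36 was at 202, 193, 152 and 185 CPM in the double mutant, against 136, 179.6, 129.6 and 132 CPM in the control (log2 fold change 0.35, SE 0.13, adjusted p = 0.353). In both genes control replicate 2 was the library that reached into the range of the double mutant. Ribosomal protein genes took 1.80 to 2.84% of counts in double-mutant mTEChi and 1.56 to 1.85% in the control, and double-mutant replicate 3, lowest of its group in that share, was also lowest in the summed members. The part of that share in the members' values was not tested. Without control replicate 4, Egr1 turned to -0.01 on the log2 scale. Whether the double mutation moved the genes differently in the subsets was tested as an interaction. By edgeR 0 of the 10 genes passed, where 0.0597% of all genes did, and 0 had an unadjusted p under 0.05, where 11.4% of all genes did. The interaction was largest in size for Jun, at 0.39 (SE 0.30, adjusted p = 0.6985), and DESeq2 also called 0.

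Inside groups, the genes varied to different degrees and most pairs of them varied together. With the group mean taken out, the SD between libraries on the log2 scale was largest for Ier2, at 0.54, and Fosb, at 0.44, and smallest for Zfp36, at 0.16, and Junb, at 0.15. Over 11510 genes with a mean of at least 10 CPM the median SD was 0.25, and 90.3% of them varied less than Ier2 but 11.9% less than Junb. Fos, Egr1 and Jund lay near that median. Across the 28 libraries, which share their depth scaling, 43 of the 45 pairs of members had a Pearson correlation above 0, with a median of 0.35. The like share for pairs of other genes is not given, so nothing is said of whether this is particular to the set. Fos and Egr1 went together most closely (r = 0.88), followed by Egr1 with Junb (0.82), Fos with Zfp36 (0.80) and Jun with Junb (0.78). Ier2 and Jund followed the others least, with median correlations of 0.13 and 0.11.

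**Figure D5:**
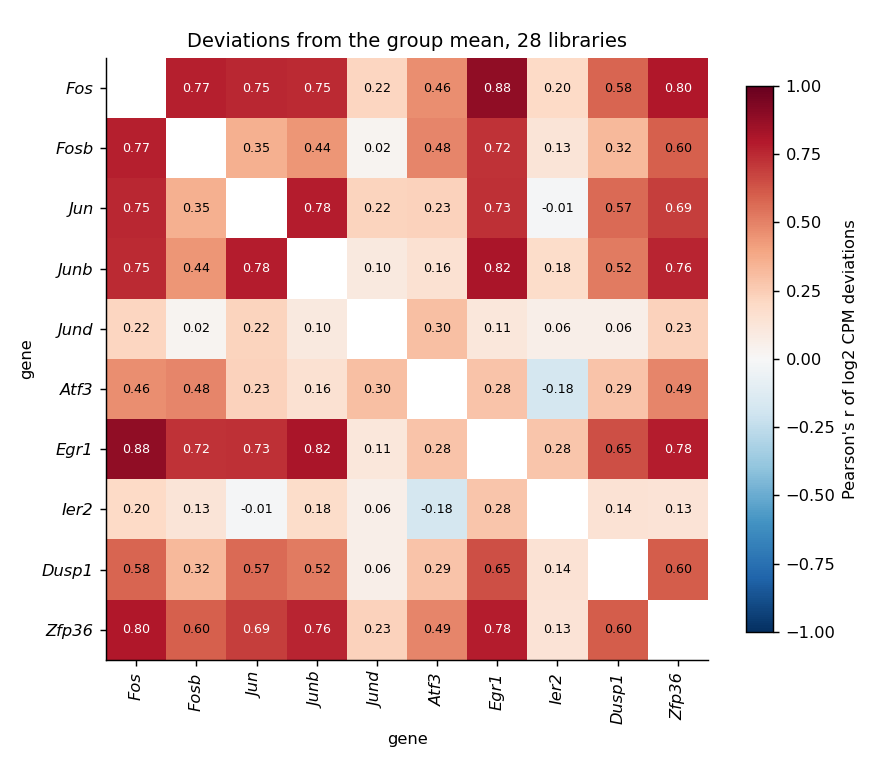
Pearson correlation (colour) between each pair of the 10 genes, over 28 libraries, of log2 CPM deviations from the group mean. Fos, Egr1, Jun, Junb, Dusp1 and Zfp36 form a block of high values, and the lines of Ier2 and Jund are pale.

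The pattern was not the same in every set of libraries. The median correlation was 0.53 within 14 mTEClo libraries, 0.51 within 8 mTEChi libraries and -0.02 within the 6 libraries of the wild-type gates. Fos and Egr1 correlated at 0.93 in mTEClo and 0.93 in mTEChi but at 0.10 in the gates. A single library, mTEChi control replicate 2, stood highest, with its members 0.48 above the group mean on average, while the other 27 lay between -0.25 and 0.19. Without it the median correlation was 0.25, 39 pairs were above 0, and Fos with Egr1 stood at 0.83. Without mTEClo control replicate 1 and 4gKO replicate 1 the median was 0.37. A library's mean deviation over the 10 genes ran against its summed fibroblast markers, with r = -0.68 over all 28 libraries, -0.78 in mTEClo and -0.80 in mTEChi but 0.75 in the gates, and against its myeloid markers at -0.49 over all libraries, with -0.77, -0.44 and 0.04 in mTEClo, mTEChi and the gates. For the mTEC markers r was -0.46 over all libraries, -0.72 in mTEClo, -0.27 in mTEChi and -0.78 in the gates. For the mitochondrial share it was 0.17 over all, 0.62 in mTEClo, -0.20 in mTEChi and 0.76 in the gates, and for sequencing depth -0.19 over all, 0.24 in mTEClo, -0.35 in mTEChi and -0.80 in the gates, which hold only 6 libraries. For the tuft markers r was -0.16 over all libraries, 0.38 in mTEClo, -0.55 in mTEChi and 0.32 in the gates. The entero-hepato markers stood at -0.47 over all libraries. Ribosomal protein share and the thymocyte, B cell, endothelial and erythroid markers lay between -0.17 and 0.18. The part of these measures in the spread was not tested.

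The 5 genes outside the set whose deviations ran most like the members' mean, by Spearman correlation over 28 libraries among 11050 genes, were Egr2 (0.71), Fxr2 (0.70), St6gal2 (0.70), Ensa (0.70) and Fdft1 (0.68). Egr2 is a relative of Egr1 and belongs to the list of other immediate early factors, and the other 4 are in none of the lists used here.

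Beyond the 10 genes, other immediate early transcription factors were called in both directions, and between mTEChi and mTEClo in shares near those of all genes. The counts of this list and of those that follow stand beside 42.9% of all genes called in control mTEChi, 50.8% in double-mutant mTEChi and 44.5% between the gates, and nothing is read from a list whose share is near them. Of 18 tested, 2 were called higher and 5 lower in mTEChi in control cells, and 2 higher and 6 lower in the double mutant. Egr3, a relative of Egr1, was at 9.34 against 98.2 CPM in control mTEChi and mTEClo (log2 fold change -3.41, edgeR adjusted p = 1.08e-07). Egr2 was at 20.1 against 122 CPM (log2 fold change -2.60). Klf4, a factor of epithelial differentiation, was at 38.8 against 138 CPM (-1.82), while Myc, which drives growth, was higher in mTEChi at 119 against 63.7 CPM (0.91). In the entero-hepato gate 5 of 17 were called higher than in the non-entero-hepato gate and 5 lower. The AP-1 partner Fosl2 was at 135 against 50.9 CPM in the entero-hepato and the non-entero-hepato gate (1.39) and Klf6 at 440.0 against 246 CPM (0.83), with Myc (-0.97) and Bhlhe40 (-0.75) lower.

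Feedback and mRNA decay genes, the kin of Dusp1 and Zfp36, were also called in both directions. In control mTEChi 6 of 22 were higher and 11 lower than in mTEClo, and in the double mutant 6 higher and 10 lower. Btg2, an antiproliferative gene, was at 159 against 628 CPM in control mTEChi and mTEClo (-1.98 on the log2 scale, edgeR adjusted p = 5.64e-11). Tnfaip3, which encodes the NF-kappaB brake A20, was at 61.6 against 159 CPM (-1.36). Nfkbia, an inhibitor of NF-kappaB, ran the other way at 2011 against 977 CPM (1.05). Nfkbia was also higher in the entero-hepato gate, at 2154 against 1182 CPM (0.85), where 8 of 21 genes of this list were higher and 3 lower. Trib1 (1.71) and Btg1 (1.25) were among the higher and Zfp36l1, a relative of Zfp36, among the lower (-1.47).

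Upstream of the set, 2 of 22 kinases and factors of the MAP kinase, serum response factor and CREB routes were higher and 5 lower in control mTEChi, and 2 higher and 9 lower in double-mutant mTEChi. Srf itself was at 9.86 against 24.7 CPM in control mTEChi and mTEClo (-1.32 on the log2 scale, edgeR adjusted p = 0.000230). Mapk3, which encodes ERK1, was at 28.2 against 49.6 CPM (-0.81) there. In the entero-hepato gate 6 of these 22 genes were higher and 3 lower. Mapk3 was then on the higher side, at 111 against 31.1 CPM in the entero-hepato and the non-entero-hepato gate (1.82), as was Map2k6, a kinase of p38, at 65.9 against 12.3 CPM (2.41). Of 13 AP-1 partners, 2 were higher and 0 lower in control mTEChi, Batf3 (2.38) and Maf (1.85). In double-mutant mTEChi 4 were higher and 3 lower, and in the entero-hepato gate 3 higher and 1 lower.

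Other stress programmes did not follow the 10 genes in a single direction. Of 15 heat shock genes, 4 were higher and 5 lower in control mTEChi, 4 higher and 4 lower in double-mutant mTEChi, while in the entero-hepato gate 2 were higher and 8 lower. Dnajb1, a partner of Hsp70, was at 217 against 356 CPM in control mTEChi and mTEClo (-0.71 on the log2 scale, edgeR adjusted p = 0.000179), and Hsp90aa1 was lower in the entero-hepato gate (-1.11). Of 17 genes of the integrated and endoplasmic reticulum stress responses, 9 were higher and 2 lower in mTEChi in either genotype, while in the entero-hepato gate 6 were higher and 1 lower. The chaperone gene Hspa5 was at 2894 against 1154 CPM in control mTEChi and mTEClo (1.33), while Xbp1 was at 164 against 316 CPM (-0.93). Of 9 oxidative stress genes, 5 were higher and 2 lower in control mTEChi and 6 higher and 3 lower in double-mutant mTEChi, with the metallothionein Mt1 at 205 against 57.8 CPM in control mTEChi and mTEClo (1.83). In the entero-hepato gate 2 of the 9 were higher and 2 lower.

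In the mutants 0 genes of these 7 related lists were called against control, except in the oxidative list. Hmox1, which encodes heme oxygenase, averaged 26.0 CPM in double-mutant mTEClo and 51.7 CPM in control mTEClo (log2 fold change -0.99, edgeR adjusted p = 0.0174). It also fell in mTEChi, to 49.9 CPM in the double mutant, against 145 CPM in the control (-1.53, adjusted p = 0.00346). Mt1 rose to 412 CPM in double-mutant mTEChi, against 205 CPM in control mTEChi (1.02, adjusted p = 0.00148), and Mt2 likewise (1.00, 0.00923).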

How the data were processed

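Whole-number read counts per gene, deposited by the authors for 28 libraries and 55011 genes, were the starting point. Per the labels' protocols, each library came from 1000 sorted cells by oligo(dT) priming with 18 cycles of PCR, without molecular identifiers, and was read as paired 38-base reads. STAR 2.7.3a, featureCounts and mm10 come from the submitters' processing notes, and the annotation and strand setting of the counting are not stated. Depth was 4330120 to 8342583 counts per library, and the fewest reads of any member in a library were the 20 of Jund.

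Groups followed the labels. The quasi-likelihood test of edgeR 4.0.16 (R 4.3.3) was run on TMM-scaled libraries after filterByExpr with a minimum count of 10 and a minimum total of 15. Each of 11 comparisons was adjusted by Benjamini-Hochberg over all genes tested at 0.05, in separate fits of the 6 gate, 14 mTEClo and 8 mTEChi libraries and, across subsets, of 16 double-mutant and control libraries. Deviations from group means used log2 CPM with a prior count of 2. The procedure was tested on simulated counts. Alternatives were DESeq2 1.42.0, its size factors, no filter, a replicate block, 2-group fits and each library left out. Plain library totals, and the omission of 2 libraries that stand apart, were added after the data had been seen.

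The members and lists were chosen with earlier results of these data known. All 10 members are named, and from each of 7 related lists (120 genes) up to 4 called genes per comparison, smallest p first. The genes most like the members are the 5 of at least 10 CPM with the highest Spearman correlation, leaving out names of the Gm and Rik kind. Sequences were chosen by motif content.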

Additional observations from a re-analysis of the deposited data

Results flagged for a closer look

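Among 40 combinations of gene and group with 4 libraries each, 4 had a library whose gap to the next, divided by the range of the group, was above Dixon's critical value of 0.829. Chance alone gives about 1 in 20 groups, and the genes share their libraries.

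In double-mutant mTEClo, replicate 1 was the library that stood apart in both cases. It was the highest for the AP-1 subunit Junb, at 805.4 CPM (gap over range 0.906), and the lowest for Ier2, at 197.4 CPM (0.89). In control mTEChi it was replicate 2, the highest for Egr1, at 308.4 CPM (0.881), and for Zfp36, at 179.6 CPM (0.861). Without control mTEChi replicate 2, Junb was called lower in control mTEChi than in control mTEClo, and 9 further genes stayed called. No cause was tested.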

How the results depend on the processing

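Between the gates 7 genes were called, and 4 to 6 when a library was left out. DESeq2 called 8, DESeq2's size factors 7, and no filter, the replicate block and plain library totals 6 each. On plain totals Fos (-0.29), Junb (-0.14) and Dusp1 (-0.14) turned below 0 on the log2 scale, which follows from the shift of all genes given above. Jund in the 4gKO against control ranged from -0.21 to 0.0333 over libraries left out, and Egr1 in double-mutant against control mTEChi from -0.0125 to 0.36.

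In mTEChi against mTEClo each other setting left 9 genes called in either genotype, except the 2-group fit of the double mutant, which left 8 and lost Jun, and leaving out a library gave 9 to 10 in control and 8 to 10 in double-mutant cells. Among the mutants and in the interaction 0 members were called under any setting or omission but one. With no filter on low counts there were 2 called in double-mutant mTEClo against control (Fos and Ier2), and 1, Ier2, in the 4aKO and in the 4gKO against control, in the double mutant against the 4aKO, and in the 4aKO against the 4gKO, where the adjusted p-values were 1.515e-13 and 3.455e-10. The cause was not tested.

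Counts over all genes moved more. In double-mutant mTEClo against control 139 genes were called by edgeR, 456 by DESeq2, 967 without a filter, 295 in the 2-group fit and 439 without the 2 libraries that stand apart. For double-mutant mTEChi these were 117 by edgeR, 439 by DESeq2 and 619 without a filter. DESeq2 and no filter gave 8 and 212 in place of 1 for the 4aKO, 143 and 482 in place of 18 for the 4gKO, and 360 and 321 in place of 12 for the interaction, which gave 85 without those 2 libraries. Between mutants they gave 278 and 733 in place of 55 for the double mutant against the 4aKO (101 without those libraries), 197 and 516 in place of 2 against the 4gKO (178 without them), and 98 and 404 in place of 12 for the 4aKO against the 4gKO. DESeq2's size factors and plain totals each gave 13 for the double mutant against the 4gKO, and the 2-group fit gave 1 for it and 1 for the 4aKO against the 4gKO. Against control, the 4aKO had 0 in the 2-group fit and 0 without those 2 libraries, and the 4gKO 10 without them.

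Libraries with the same number deviated together at correlations of -0.04 to 0.28, in no comparison above 0.1 for every pair. In none did every library correlate best with its own number (5 of 6 at most). In mTEClo, replicate 1 had the highest mean deviation of the members in each genotype. It was 0.12 on the log2 scale in the double mutant, 0.16 in the 4aKO, 0.16 in the 4gKO and 0.19 in the control. That replicate also had the lowest summed mTEC markers, at 4908, 5551, 3985 and 6247 CPM of the plain totals in the same order. What these libraries share was not tested. With the replicate block as a term 6 genes were called between the gates, Jund being lost (adjusted p = 0.0516), 9 in mTEChi against mTEClo in each genotype, and 0 elsewhere. Over all genes the block gave 204 in place of 139 in double-mutant mTEClo, 104 in place of 55 and 7 in place of 2 in the double mutant against the 4aKO and the 4gKO, and 5 in place of 12 for the interaction.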
